A study of Drosophila melanogaster with 6 samples.

Results

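The yellow genes of Drosophila melanogaster form a family of secreted proteins that share the major royal jelly protein domain, named for its honeybee members. The 10 genes described here are yellow-b, yellow-c, yellow-d, yellow-d2, yellow-e, yellow-e3, yellow-f, yellow-f2, yellow-g and yellow-h, chosen by symbol from the authors' table of tumor against control. Of these 10 genes, 8 had a row among the 6156 genes the table lists, out of 9384 genes the authors tested. yellow-e3 and yellow-g had no row and are reported as not listed.

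As background, the founding gene yellow (y) is needed for black pigment in the adult cuticle, and its relatives act in insect pigmentation, cuticle and eggshell formation. Melanin is made from tyrosine by way of dopa and dopamine. The Drosophila proteins Yellow-f and Yellow-f2 speed one step of that route as dopachrome-conversion enzymes, while yellow-g and yellow-g2 are needed for the vitelline membrane, the inner layer of the eggshell. In the silkworm, yellow-e is a larval head and tail pigment gene. No role is given below for a family gene whose function is less certain.

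The tissue is given as the imaginal ring of the larval salivary gland, a collar of diploid progenitor cells beside the large polyploid secretory cells. Markers of secretory cells and of fat body were very high in control (values below). The control RNA therefore cannot be taken as that of ring cells alone. The 3 control samples had the genotype Actts>GFP and were labelled as larvae of the third instar. The 3 tumor samples had the genotype Actts>GFP+NICD and carried the label of 7 days kept at 18 °C and then 7 days at 29 °C, with no such entry for controls, so genotype, age and temperature cannot be told apart. NICD is the intracellular, active part of the receptor Notch. Both groups share GFP under the ubiquitous actin driver, which is not restricted to the imaginal ring, and Gal80ts, a heat-sensitive repressor used to time expression.

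The files hold one comparison by the authors and no value per sample. No fold change below therefore has an SD, an SE or a range over samples, the depth per library is unknown, and whether the 3 samples of each group overlapped cannot be shown. Whether separate animals gave the samples within a group is not in the labels, and the authors' p-values then cover only the spread among these samples, which may be technical. Log2 fold changes are tumor minus control, and CPM is counts per 1000000 reads. Because the genes were chosen from rows that exist only for called genes, their values are a description and not an independent test.

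The listed yellow genes did not move one way. By the authors' deposited table, yellow genes higher in tumor numbered 3 (yellow-h, yellow-c and yellow-b) and lower ones 5 (yellow-d2, yellow-f2, yellow-f, yellow-d and yellow-e). Among all tested genes 65.6% were called, 34.0% as higher and 31.6% as lower, at the authors' adjusted p below 0.05. The log2 fold changes of the 8 genes ran from -3.27 to 4.33, with a median of -1.90 beside 0.57 over all listed genes. Each of the 8 is larger in size than that 0.57, so subtracting it could not reverse a direction. The subtraction left yellow-b at 0.86 and yellow-c at 0.93, and made the 5 lower genes lower still. Other scalings between the groups were not tried, so the directions are those on the deposited scale. All 8 differed by at least 2-fold, a size reached together with the call by 26.7% of tested genes as higher and 23.5% as lower.

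**Figure D1:**
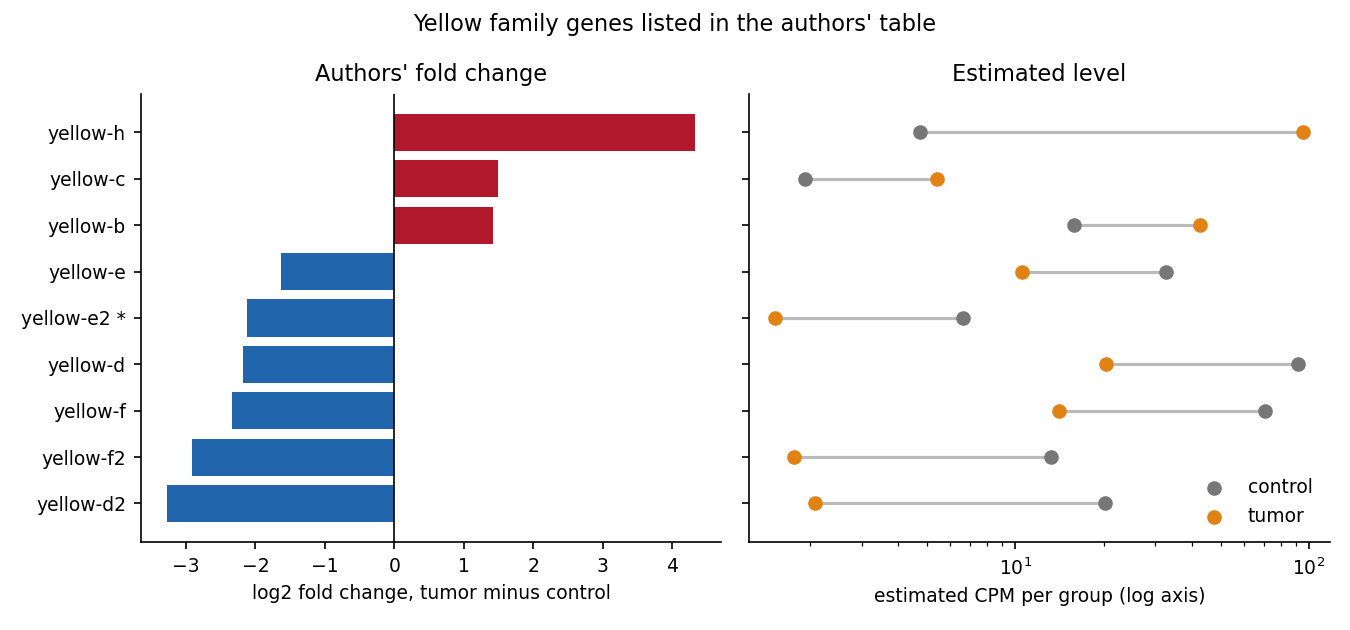
Left, log2 fold change (tumor minus control, horizontal axis) from the authors' deposited table for each listed yellow gene; right, estimated CPM in control (grey) and tumor (orange) on a log axis, to be compared within a gene. The asterisk marks yellow-e2, a family gene outside the 10, and bars run from -3.27 for yellow-d2 to 4.33 for yellow-h.

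yellow-h had the widest difference of the listed family genes. Its mean level over all libraries was 50.2 CPM, estimated as 4.75 CPM in control and 95.6 CPM in tumor. The authors' deposited table has yellow-h at 4.33 on the log2 scale, 20.1-fold higher in tumor, with an adjusted p of 2.64e-05. By size it ranked 306 of the 3187 genes listed as higher, so 9.57% of them differed more. It lies on chromosome 4, the small and largely heterochromatic chromosome, where 26 of 47 listed genes were higher and the median was 0.72. Only the antisense RNA gene CR46065, which overlaps yellow-h, had a larger rise than yellow-h among the listed genes of chromosome 4, at 4.44 per the authors' deposited table. Its mean was 1.69 CPM, and the bases it shares with yellow-h are taken up below.

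The remaining rises were smaller. yellow-b, at a mean of 29.2 CPM, was estimated at 15.8 CPM in control and 42.5 CPM in tumor, and the authors' deposited table gives 2.69-fold higher with an adjusted p of 0.00161. yellow-c had a mean of 3.68 CPM over all libraries. It was estimated at 1.92 CPM in control and 5.43 CPM in tumor, 2.82-fold higher per the authors' deposited table. With an adjusted p of 0.0215, yellow-c was also the listed gene of the 10 nearest the threshold of 0.05. Both genes sit on arm 2L, where 501 of 1061 listed genes were higher. In size, 60.9% of the genes listed as higher differed more than yellow-b and 58.5% more than yellow-c.

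The dopachrome-conversion pair was lower in tumor. yellow-f was estimated at 70.9 CPM in control and 14.1 CPM in tumor, and the authors' deposited table gives 5.04-fold lower (log2 fold change -2.33, adjusted p 0.000109). For yellow-f2 the estimates were 13.2 CPM and 1.76 CPM in the same order, with 7.50-fold lower per the authors' deposited table (log2 fold change -2.91, adjusted p 0.000341). The log2 fold changes of yellow-f and yellow-f2 lie 0.57 apart, a gap that could not be tested without values per sample. Per kilobase of transcript, the mean level of yellow-f was 5.90 times that of yellow-f2.

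The yellow-d pair was lower as well. yellow-d2 had the largest fall of the listed family genes, estimated at 20.1 CPM in control and 2.08 CPM in tumor. The authors' deposited table has it 9.67-fold lower (log2 fold change -3.27, adjusted p 8.65e-05), and 15.2% of the genes listed as lower differed more. yellow-d was estimated at 92.1 CPM in control and 20.3 CPM in tumor, 4.53-fold lower per the authors' deposited table (log2 fold change -2.18, adjusted p 0.000649). The log2 fold changes of yellow-d and yellow-d2 lie 1.09 apart, also untested. How alike the sequences of such neighbouring copies are was not computed, so reads shared between them were not assessed.

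yellow-e had the smallest fall of the 5. Its estimates were 32.6 CPM in control and 10.6 CPM in tumor, and the authors' deposited table gives 3.09-fold lower (log2 fold change -1.63, adjusted p 0.00426). Its neighbour yellow-e2, a family gene outside the 10, was 4.35-fold lower per the authors' deposited table at a mean of 4.08 CPM (adjusted p 0.0334). The third gene of that run, yellow-e3, was not listed.

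**Figure D2:**
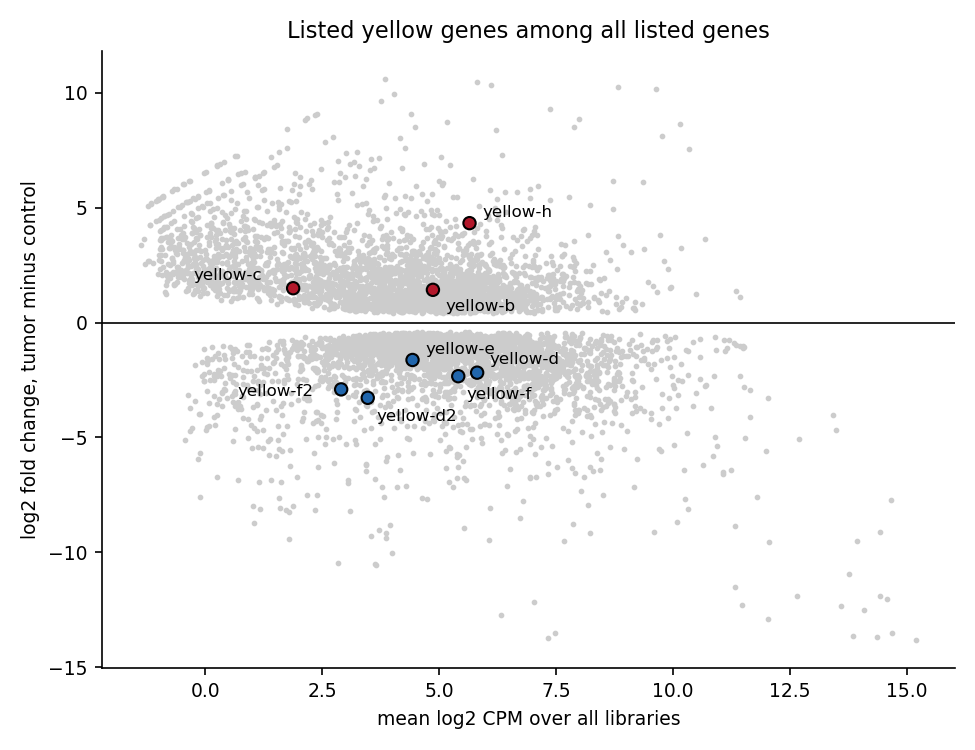
Each grey point is a listed gene with both groups fitted above 0, by mean log2 CPM (horizontal axis) and log2 fold change, tumor minus control (vertical axis); labelled points are the 8 listed yellow genes, red for higher and blue for lower. The empty band around 0 is where genes were not called, and yellow-h at 4.33 stands apart from yellow-b and yellow-c.

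On a per-length scale the mean levels over all libraries spread widely. Divided by median annotated transcript length, yellow-h, yellow-d and yellow-f stood highest at 33.4, 32.1 and 30.2 CPM per kilobase. yellow-b followed at 16.7 and yellow-e at 11.7 CPM per kilobase. yellow-d2 (8.28), yellow-f2 (5.12) and yellow-c (2.36 CPM per kilobase) were lowest. With no spread over samples, which neighbours in that order differ cannot be said.

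Family genes without a row give no direction. Beside yellow-e3 and yellow-g, the founding gene y, yellow-g2 and yellow-k were not listed, so 9 of the 14 family genes named here were. A gene without a row was either tested and not called or not tested, and no level can be given for it. Neither eggshell gene of the family, yellow-g or its near neighbour yellow-g2, was listed, and neither were 14 of the 16 genes of an eggshell and vitelline membrane list. Of all annotated genes 33.3% were listed. yar, the RNA gene next to y, was 4.77 higher on the log2 scale per the authors' deposited table at a mean of 1.46 CPM, and is named with its value already seen.

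Several yellow genes overlap other genes, and the strand setting of the authors' counting is not given in the sources used here. Where partners share bases, whether their reads were told apart is therefore not known. yellow-c shares 1197 exonic bases, 74.8% of its exons, with CIAPIN1 on the opposite strand, an iron-sulfur protein assembly gene with a mean of 17.1 CPM per kilobase beside 2.36 for yellow-c. The partners differ in direction, since CIAPIN1 was 2.17-fold lower per the authors' deposited table and yellow-c higher. yellow-h shares 182 bases with the antisense RNA gene CR46065, 12.1% of the exons of yellow-h and 37.8% of those of CR46065. CR46065 had a mean of 3.52 CPM per kilobase beside 33.4 for yellow-h and was 21.8-fold higher per the authors' deposited table. yellow-f shares 95 bases, 6.60% of its exons, with CG31342, which was 3.72-fold higher per the authors' deposited table where yellow-f was lower. yellow-b shares 100 bases with ppk17, which was not listed. yellow-d and yellow-d2 overlap the span of CG13551 but share no exonic base with it, and yellow-e and yellow-f2 overlap no annotated gene. Leaving out the 3 genes that share exonic bases with another listed gene (yellow-c, yellow-f and yellow-h) leaves 1 higher gene, yellow-b, and 4 lower ones.

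Adjacent listed yellow genes were lower together, and their nearest listed neighbours outside the family included both directions. Around yellow-d and yellow-d2, CG13551 on one side and the noncoding RNA gene CR44784 on the other were 4.63-fold and 25.2-fold lower per the authors' deposited table. Of the 10 genes nearest yellow-d, yellow-d2 among them, 9 were listed, 7 lower and 2 higher. Beside the yellow-f pair, CG7488 was 1.92-fold lower and CG31342 3.72-fold higher per the authors' deposited table. Past yellow-e, the epithelial polarity gene yrt was 2.11-fold higher, and next to yellow-e3 the gene CG33977 was 9.28-fold lower per the authors' deposited table.

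Neighbours of the rising genes were mixed too. yellow-b stood between LSm7, 2.78-fold lower, and the muscle myosin gene Mhc, 4.31-fold lower per the authors' deposited table. Beside yellow-c on the left, the nearest listed gene, THG, was 1.94-fold lower per the authors' deposited table. Su(H), the gene of the DNA-binding partner of NICD, is the second gene past yellow-c and stood at 1.02 on the log2 scale per the authors' deposited table; it is named with its value already seen. For yellow-h, the nearest listed gene on the other side, CG31999, was 6.05-fold higher per the authors' deposited table. Around the unlisted yellow-g, ecd was 1.83-fold higher and CG8993 3.62-fold lower per the authors' deposited table. Over all 10 yellow genes, the 5 nearest genes on each side came to 69 distinct genes outside the family, of which 32 were listed (46.4%), 15 higher and 17 lower. Of all annotated genes 33.3% were listed, and of all tested genes 65.6% were called. How many of the 69 were tested is not known.

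**Figure D3:**
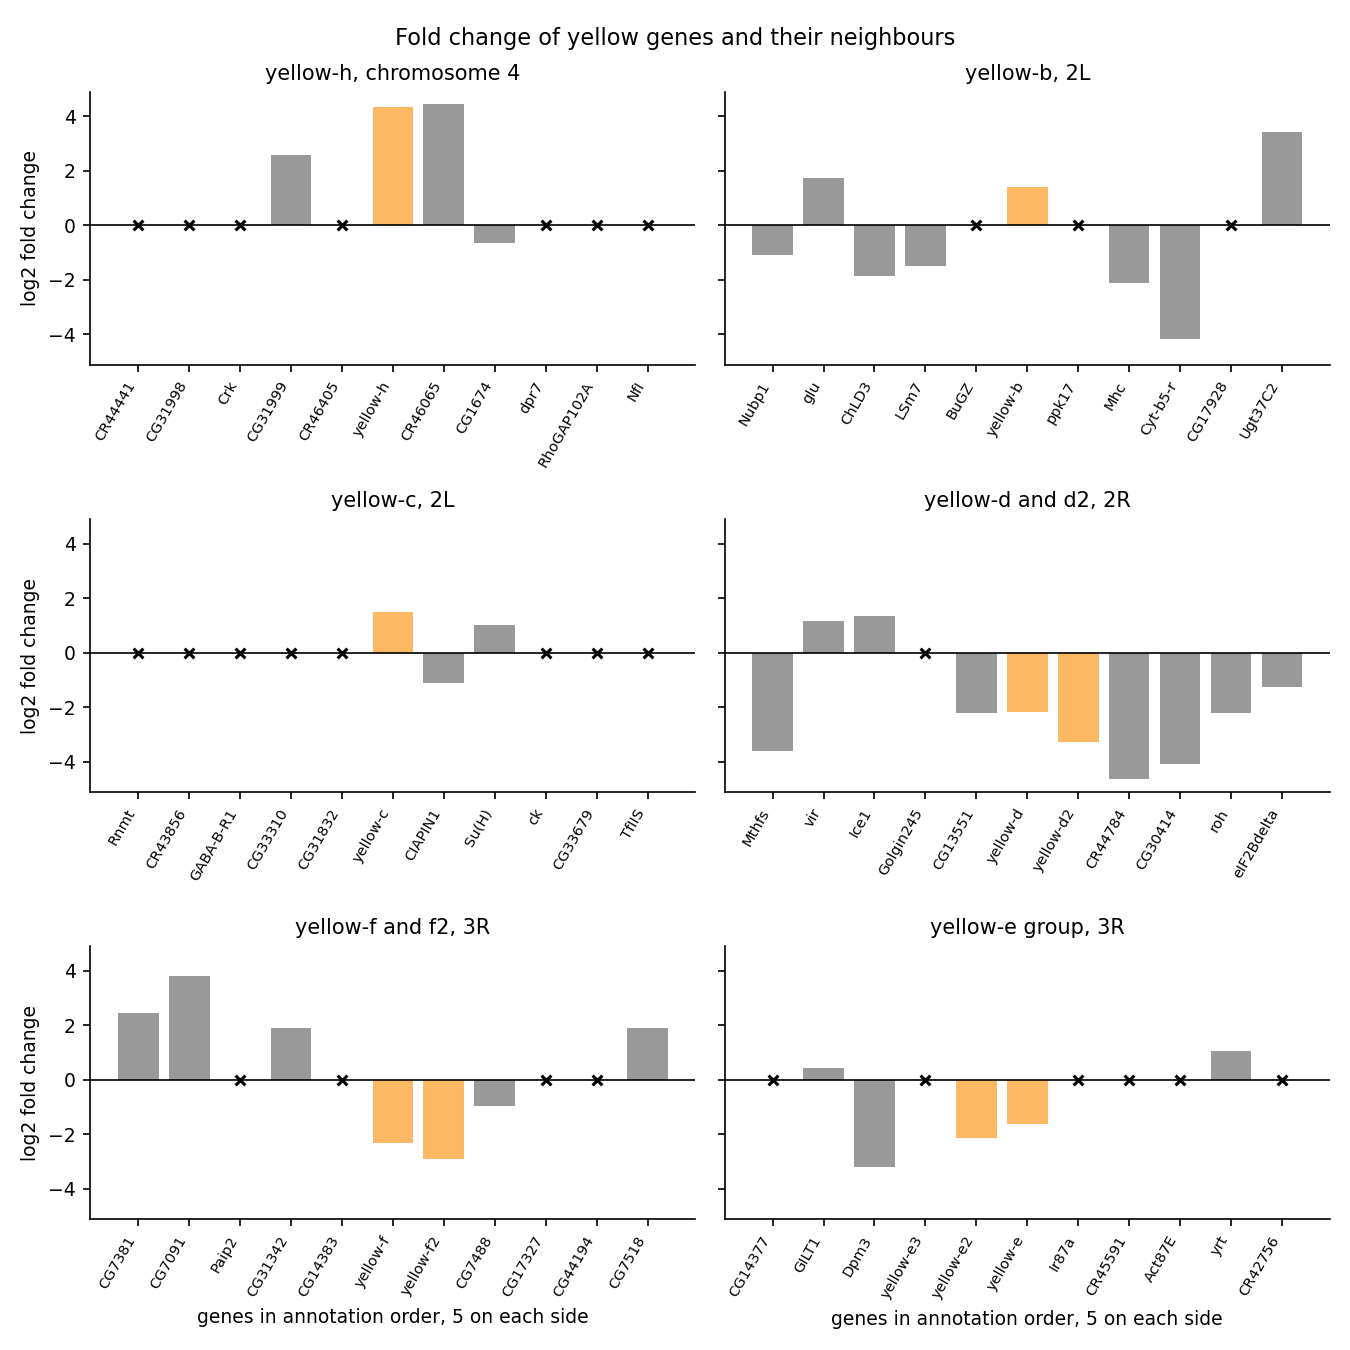
Log2 fold change (tumor minus control, vertical axis) from the authors' deposited table for yellow genes (orange) and the 5 nearest annotated genes on each side (grey), in annotation order and not to distance; crosses mark genes with no row. Adjacent listed yellow genes share a direction, and yellow-h stands beside CR46065 at 4.44.

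Genes of a list around dopamine pigments differed in direction among themselves. Of 21 genes in a list of catecholamine, pigment and sclerotization genes, 13 were listed, 8 lower and 5 higher, and their median was -1.74 on the log2 scale. The share listed was 61.9% of all 21 genes, tested or not, beside 33.3% of all annotated genes. Of all tested genes 65.6% were called, 2969 lower and 3187 higher, but how many of the 21 were tested is not known. Hn, the phenylalanine hydroxylase that makes tyrosine, was 14.2-fold lower, from an estimated 467 CPM to 32.9 CPM, per the authors' deposited table. Pu, the GTP cyclohydrolase that starts cofactor synthesis, was 5.27-fold lower, and the cofactor-recycling genes Pcd and Dhpr were 4.32-fold and 3.99-fold lower per the authors' deposited table. Ddc, which turns dopa into dopamine, was 3.34-fold lower there, and Catsup, a regulator of tyrosine hydroxylase, 6.87-fold lower per the authors' deposited table. The tyrosine hydroxylase gene ple was not listed. Of the 5 higher genes, amd was 5.76-fold and Vmat 5.45-fold higher per the authors' deposited table, and e, Tdc1 and Tdc2 are given below. Both amd (0.852 to 4.91 CPM) and Vmat (1.02 to 5.57 CPM) were estimated at low levels.

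Genes for the handling of dopamine differed in direction. ebony (e), which couples dopamine to beta-alanine for tan cuticle, was 18.7-fold higher per the authors' deposited table, from an estimated 0.852 CPM to 16.0 CPM. tan (t), which reverses that step, was 6.62-fold lower per the authors' deposited table, from an estimated 17.1 CPM to 2.58 CPM. The tyrosine decarboxylase genes Tdc1 and Tdc2, which lead to tyramine instead of dopamine, were 17.1-fold and 74.7-fold higher per the authors' deposited table. Tdc1 was estimated at 3.05 CPM in control and 52.1 CPM in tumor. For Tdc2 the estimates were 0.126 CPM and 9.45 CPM, so its fold rests on a very low control level. black (b), straw (stw), the laccase gene of cuticle hardening, and speck were not listed. The genes of this list other than Catsup, Tdc1, t and Dhpr were picked for their role with their values already seen.

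**Figure D4:**
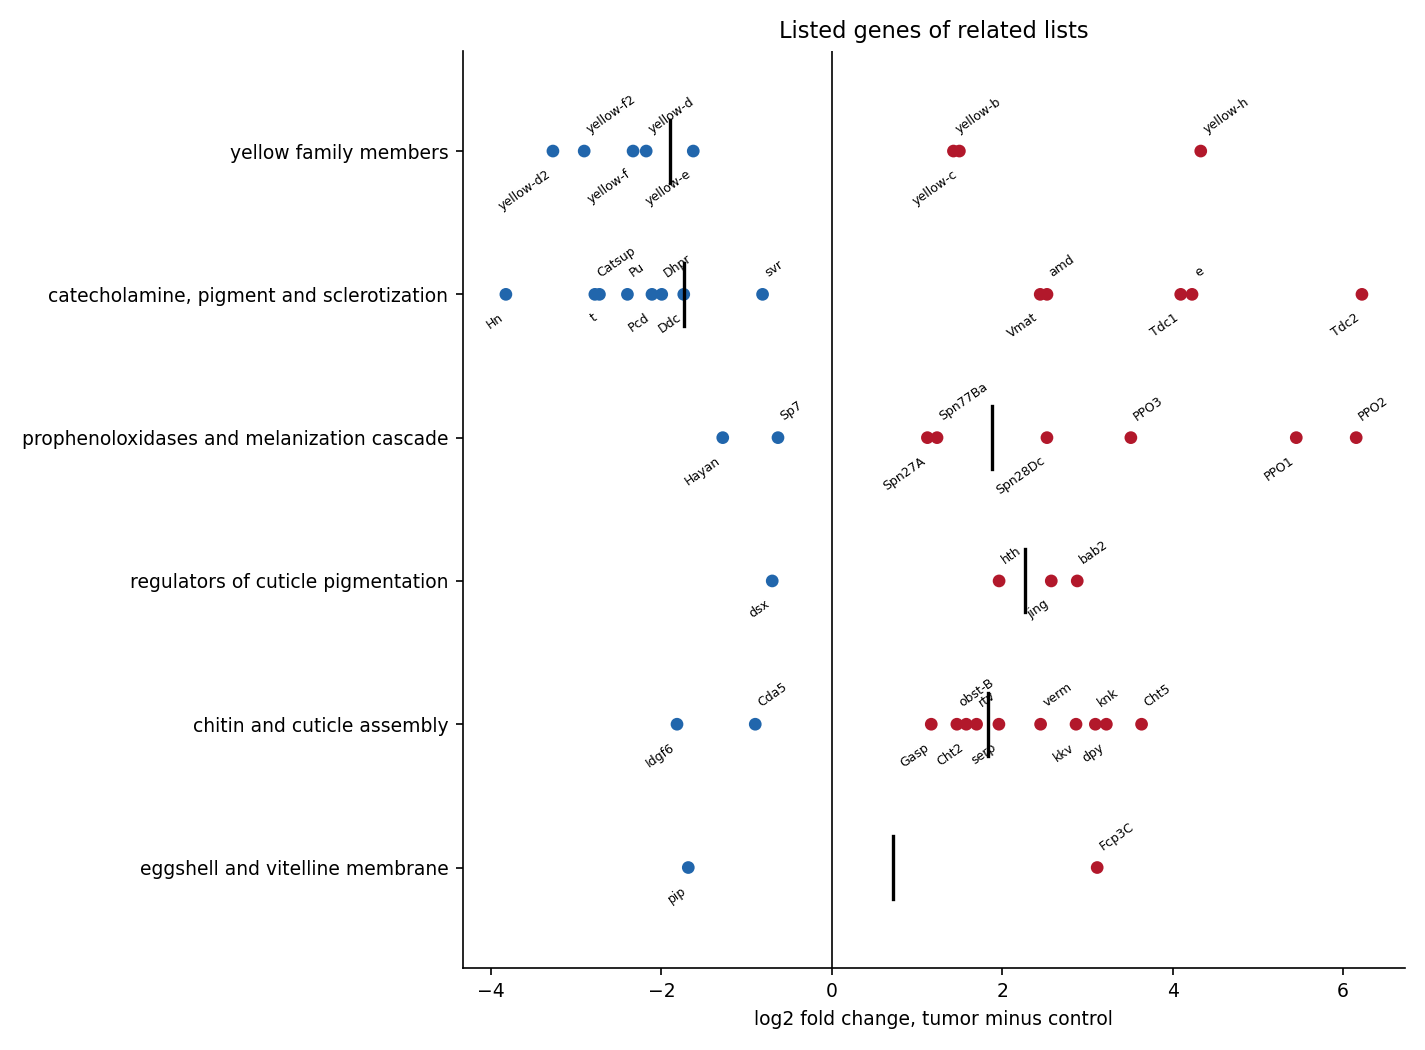
Each point is a listed gene by log2 fold change, tumor minus control (horizontal axis), for the 8 yellow genes and 5 related lists, red for higher and blue for lower; the black bar is the median of a list. The yellow genes and the catecholamine list have medians of -1.90 and -1.74, and the prophenoloxidase, regulator and chitin lists have medians above 0.

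In the prophenoloxidase, regulator and chitin lists more of the listed genes were higher than lower, beside 3187 higher and 2969 lower over all listed genes. Of 9 genes of the prophenoloxidase and melanization cascade 8 were listed (88.9%), 6 of them higher, with a median of 1.88. Of all tested genes 65.6% were called, but how many genes of these lists were tested is not known. The share listed over all annotated genes, tested or not, was 33.3%. The melanin-forming enzyme genes PPO1 and PPO2 were estimated to go from 9.82 to 430 CPM and from 11.6 to 828 CPM, with differences of 43.8-fold and 71.3-fold per the authors' deposited table; both are also known as genes of hemocytes. The serpin genes Spn28Dc and Spn27A, inhibitors of the cascade, were 5.76-fold and 2.18-fold higher per the authors' deposited table. Of 12 regulators of cuticle pigmentation 4 were listed (33.3%, the same as the share of all annotated genes), 3 higher. Among those 3, hth also stands in the list of imaginal ring and gland fate genes. bab2, a repressor of abdominal pigment, was 7.37-fold higher, jing 5.96-fold and hth 3.90-fold higher, and dsx 1.62-fold lower per the authors' deposited table. Of 19 chitin and cuticle assembly genes 12 were listed (63.2%), 10 higher, with a median of 1.83. Of the 10 higher genes, 3 (verm, serp and Gasp) are also tracheal markers. The chitinase gene Cht5 was 12.4-fold higher and dpy, a giant apical matrix protein gene, 9.34-fold higher per the authors' deposited table. In the eggshell list only pip (3.21-fold lower) and Fcp3C (8.67-fold higher) have a row among the authors' deposited values.

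Markers of other cell types moved in the same comparison, and their part in the values of the yellow genes was not tested. All 13 salivary secretion markers were lower, with an estimated sum of 327872 CPM in control and 282 CPM in tumor, and all 9 fat body markers were lower, at 188168 and 1370.4 CPM. Larval cuticle markers were lower in 8 of 10 genes (3428 and 102 CPM). Hemocyte markers were higher in 8 of 9 listed genes of 11 (237 and 522 CPM), where NimC2, the lower one, alone makes up 223 and 27.4 CPM and the median log2 difference was 4.68. For trachea, 7 of 7 listed markers of 10 were higher (296 and 1184 CPM), of which verm, serp and Gasp also stand in the chitin list. For muscle, 5 of 5 listed markers of 6 were lower (1759 and 201 CPM), whereas for neuron and glia 2 of the 3 listed markers of 6 were higher (169 and 107 CPM). Of these 3, Syt1, the lower one, alone makes up 152 and 28.2 CPM, and elav and moody were 4.41-fold and 4.96-fold higher. None of the 6 follicle cell markers was listed. The imaginal ring and gland fate genes eyg, toe, Scr and hth were listed, all higher (145 and 717 CPM), while fkh and exd were not. In such bulk samples fewer cells of a type and less RNA per cell cannot be told apart.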

How the data were processed

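RNA sequencing of 3 control and 3 tumor samples was compared by the authors. featureCounts (counting) and DESeq2 (comparison) are named per the submitters' processing notes, without versions, while the column names of the table are those of edgeR, per the file headers, so the tool behind the deposited values is not settled. Not given in the sources used here are the aligner, build, annotation, strand setting and filters. The authors' deposited table gives per gene a log2 fold change, the log2 of mean CPM, and p-values before and after adjustment. The authors' unshrunk log2 fold change was treated as a score, since 43 deposited values exceed 100 in size and mark a group fitted at 0. None of these is a yellow gene, and for the listed yellow genes both versions differ by at most 0.0024.

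Numbers of tested and called genes came from the authors' deposited summary under the headings 1.2 and 2, read here as minimum folds. Group CPM was estimated from the mean CPM, taken as the average of both groups, and the fold change. These estimates sum over all listed genes to 1224976 CPM (control) and 351471 CPM (tumor), so they rest on scaling beyond library totals and are no shares of reads. Transcript lengths, gene order and overlaps are from the BDGP6 annotation (version 54, Ensembl release 115) without transposable elements. It holds 6111 of the listed genes (99.3%), and since its build may not be the authors', no coordinates are given. No genome, promoter or protein sequence was used here, so the planned comparison of protein sequences was not made.

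The genes and 15 lists (149 symbols, 3 matched by an older name, 2 of which repeat a gene of the same list and count once) were chosen with earlier results of these data known. Named are all 10 genes, the rest of the family, up to 4 genes per list with the smallest adjusted p and the nearest listed neighbour on each side. For the marker lists counts and sums are given, with few genes named. Other genes are said to have been chosen after their values were seen. The code, checked on made-up lists with known counts and medians, ran with Python 3.11.15, pandas 2.3.3 and numpy 2.4.6. No test of single genes was run.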

Additional observations from a re-analysis of the deposited data

How the results depend on the processing

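Settings that alter the fold changes themselves (unshrunk values, and subtraction of the median of all listed genes) gave 16 values for the 8 listed yellow genes. All had the direction as deposited, which these settings could not have reversed. The smallest deposited size was 1.43 (yellow-b), beside a subtracted median of 0.57 and a largest unshrunk difference of 0.0024. The 16 values come with no p-value, so calls were not examined under these settings. After the subtraction yellow-b (0.86) and yellow-c (0.93) lie below 2-fold, and the 5 lower genes are lower still. Other scalings between the groups were not tried. The estimated sums over all listed genes, 1224976 CPM in control and 351471 CPM in tumor, differ by more than the subtracted median. Whether the lower genes keep their direction on a scale with equal sums was not tested. At an adjusted p below 0.01, 7 genes kept their call and yellow-c lost it. The numbers of higher and lower genes, 3 and 5, became 2 and 5 at an adjusted p below 0.01 (called for 26.2% and 25.8% of tested genes), 2 and 4 among genes with a mean log2 CPM over 3.06, the lower quartile, and 3 and 6 over all 14 family genes. They were 3 and 5 at a 2-fold minimum and, by sign alone, with unshrunk values and after the subtraction. Without the 3 genes that share exonic bases with another listed gene, a setting chosen after seeing the data, 1 was higher and 4 were lower. The median of -1.90 became -2.18 at an adjusted p below 0.01, -2.47 after the subtraction, -2.12 over the 14 family genes and -2.18 without the overlapping genes. The share of neighbours listed, 46.4% for 5 genes on each side, became 48.9% for 10, beside 33.3% of all annotated genes. Of all tested genes 65.6% were called, and how many neighbours were tested is not known.

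Leaving out replicates was not run, for want of values per sample. No paired analysis was possible because the table carries no sample columns. Depth is unknown and no counting interval or detection limit can be given.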
